A study of Eucalyptus nitens with 12 samples.

Results

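Expansin 11 (Eucgr.F03723) and a gibberellin-regulated family protein (Eucgr.B03715) were grouped under cell expansion by name and measured in the wood-forming tissue of Eucalyptus nitens. These genes were not tested for such a role. They were taken as every row of both deposited count tables that carries either E. grandis gene identifier, which gave 1 transcript of each gene in each trial, or 4 of 50196 transcript rows and 2 of 18778 genes. Both genes were chosen because they had come out far lower in low-yield trees in earlier results of these same libraries, so their low against high values are given here as a description with no test. The same holds for the comparison of the trials within low KPY, since those low values entered the choice. The comparison of the trials within high KPY was tested, on libraries that also took part in the choice.

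Expansins are secreted proteins that loosen the primary wall by releasing the contacts between cellulose and the matrix polysaccharides around it, without cutting them, and so let a cell under turgor enlarge. Gibberellins promote elongation by causing the loss of the DELLA repressors, and in the wood of poplar they favour fibre elongation and xylem differentiation. The gibberellin-regulated family, also known as GASA or Snakin proteins after Arabidopsis and potato members, consists of small secreted peptides rich in cysteine, many of which respond to gibberellin at the transcript level. The names expansin 11 and gibberellin-regulated family protein are those of the closest Arabidopsis proteins, as the study assigned them.

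RNA was sequenced from cambial scrapings, labelled as xylem, of E. nitens trees at the extremes of kraft pulp yield (KPY), the share of wood mass recovered as fibre after kraft pulping. The 4 groups were Meunna high KPY, Meunna low KPY, Florentine high KPY and Florentine low KPY, named for 2 field trials in Tasmania, and each had 3 libraries. All groups were untreated trees labelled as 20 years old. Each library was a bulk that pooled RNA of several trees, so the spread between replicates is the spread between bulks and not between single trees. Trees were chosen by KPY in standing field trials, so KPY class and any trait that goes with it, such as growth, cannot be told apart.

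Library totals ran from 44538273 to 89987549 counts over the transcripts of a trial. A level of 1 CPM (reads per 1000000 counted reads, scaled for composition with TMM factors) corresponded to between 40.4 and 81.5 reads. All 9 xylem marker genes were detected in both trials, and their summed level was 7215 to 9048 CPM in Meunna high KPY and 1078 to 2012 CPM in Meunna low KPY. In Florentine the sums were 13519 to 15968 CPM in high KPY and 2467 to 6541 CPM in low KPY. In low KPY 8 of these 9 markers were called lower in Meunna, where 16.9% of all transcripts were, and 7 in Florentine, where 20.0% of all transcripts were. All tissue markers, phloem and green tissue included, were identified in the study's own tables of results on these libraries. A call was thus likely beforehand, and nothing is read from these counts. The xylem markers are lower in the same classes as the genes described here, and their part in those values was not tested. The single phloem marker was at 1.78 to 3.44 CPM in Meunna high KPY and 0.153 to 0.662 CPM in low KPY, and in Florentine at 1.23 CPM or more in high KPY and 0.203 to 1.11 CPM in low KPY. The single green tissue marker, found in the Florentine table only, was at 1.23 to 3.89 CPM in high KPY and 0.647 to 1.03 CPM in low KPY.

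Expansin 11 was lower in every low KPY bulk than in every high KPY bulk of its trial. In Meunna it had 82, 155 and 270 reads in high KPY bulks 1 to 3, equal to 1.11, 1.90 and 4.17 CPM. It had 24, 19 and 29 reads in the low KPY bulks, equal to 0.313, 0.264 and 0.519 CPM. High KPY bulk 3 stood above the other bulks of its class, and the lowest high KPY bulk was 2.14 times the highest low KPY bulk. The class means were 2.39 ± 1.59 CPM (SD, n = 3) in high KPY and 0.365 ± 0.135 CPM (SD, n = 3) in low KPY.

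In Florentine, where expansin 11 was more abundant, the high KPY bulks had 233, 394 and 331 reads, equal to 5.75, 9.35 and 8.20 CPM. The low KPY bulks had 145, 48 and 92 reads, equal to 3.03, 0.814 and 1.56 CPM. Low KPY bulk 1 came nearest to the high class, which its lowest bulk still exceeded 1.90-fold. The class means were 7.77 ± 1.84 CPM in high KPY and 1.80 ± 1.13 CPM in low KPY (SD, n = 3 each).

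The gibberellin-regulated protein was also lower in every low KPY bulk than in every high KPY bulk of its trial, down to a few reads in Meunna. Meunna high KPY bulks 1 to 3 had 396, 687 and 423 reads, equal to 5.35, 8.43 and 6.53 CPM. The Meunna low KPY bulks had 10, 7 and 2 reads, equal to 0.130, 0.0971 and 0.0358 CPM. In Meunna low KPY the transcript was thus close to the limit of detection, and only 4 of 26279 transcripts, itself included, had 19 or fewer reads over those 3 bulks. All 26279 had passed the study's filter on low expression, which leaves few transcripts with so few reads. The lowest high KPY bulk was 41.1 times the highest low KPY bulk, and the class means were 6.77 ± 1.55 and 0.0877 ± 0.0479 CPM (SD, n = 3 each).

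Florentine high KPY bulks had 317, 487 and 362 reads of the gibberellin-regulated protein, equal to 7.83, 11.6 and 8.97 CPM. The low KPY bulks had 253, 71 and 75 reads, equal to 5.28, 1.20 and 1.27 CPM. Low KPY bulk 1 lay close to the high class, and the lowest high KPY bulk was 1.48 times that value. Low KPY bulks 2 and 3 lay together, well below it. The class means were 9.45 ± 1.91 CPM in high KPY and 2.58 ± 2.34 CPM in low KPY (SD, n = 3 each), so the SD of the low class was nearly as large as its mean.

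**Figure D1:**
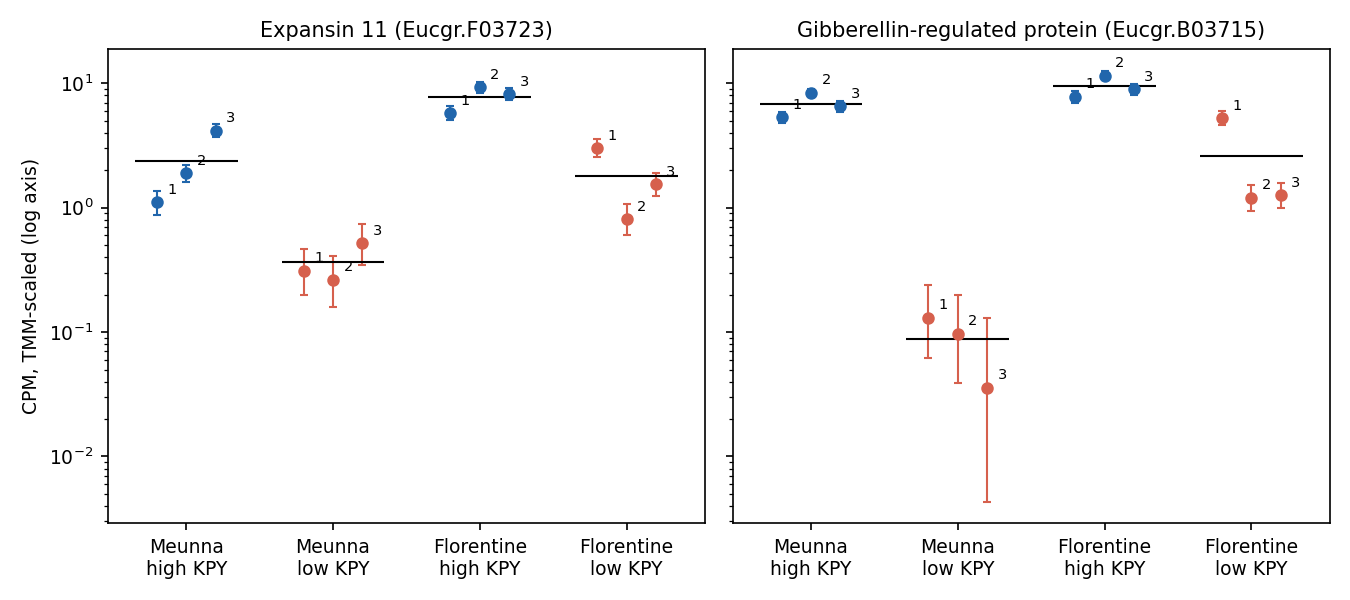
Level of expansin 11 (left) and the gibberellin-regulated protein (right) in each of the 12 bulks, in TMM-scaled CPM on a log axis, by trial and KPY class. Points are bulks with their replicate number, bars are exact 95% Poisson intervals for counting error only, and black lines are group means; in Meunna low KPY the gibberellin-regulated protein sits at 0.130 CPM or less, below all other points of its panel.

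Both genes thus separated the KPY classes with no overlap in both trials. For comparison, 26.7% of all Meunna transcripts and 29.0% of all Florentine transcripts were lower in low KPY with no overlap between the classes. Since this contrast chose the genes, nothing is read from their count. In Meunna both passed the study's filter on low expression, 1 CPM in at least 3 libraries, only through the high KPY bulks. Without composition scaling, expansin 11 ranged from 1.05 to 3.57 CPM there and did not exceed 0.586 CPM in low KPY.

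The size of the change was given by an edgeR quasi-likelihood fit of each trial over all of its transcripts, as the log2 of low over high KPY. For expansin 11 this was -2.71 (SE 0.59) in Meunna and -2.12 (SE 0.48) in Florentine, which are levels 6.56 and 4.33 times higher in high KPY. The gibberellin-regulated protein had -6.20 (SE 0.48) in Meunna and -1.88 (SE 0.61) in Florentine, or levels 73.6 and 3.67 times higher in high KPY. The median over all transcripts was 0.00 in Meunna and 0.02 in Florentine. Ranked by fold change, the gibberellin-regulated protein had the second deepest fall of the 26279 Meunna transcripts (rank 2) and rank 147 of 23917 in Florentine. Expansin 11 had rank 204 in Meunna and rank 80 in Florentine.

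**Figure D2:**
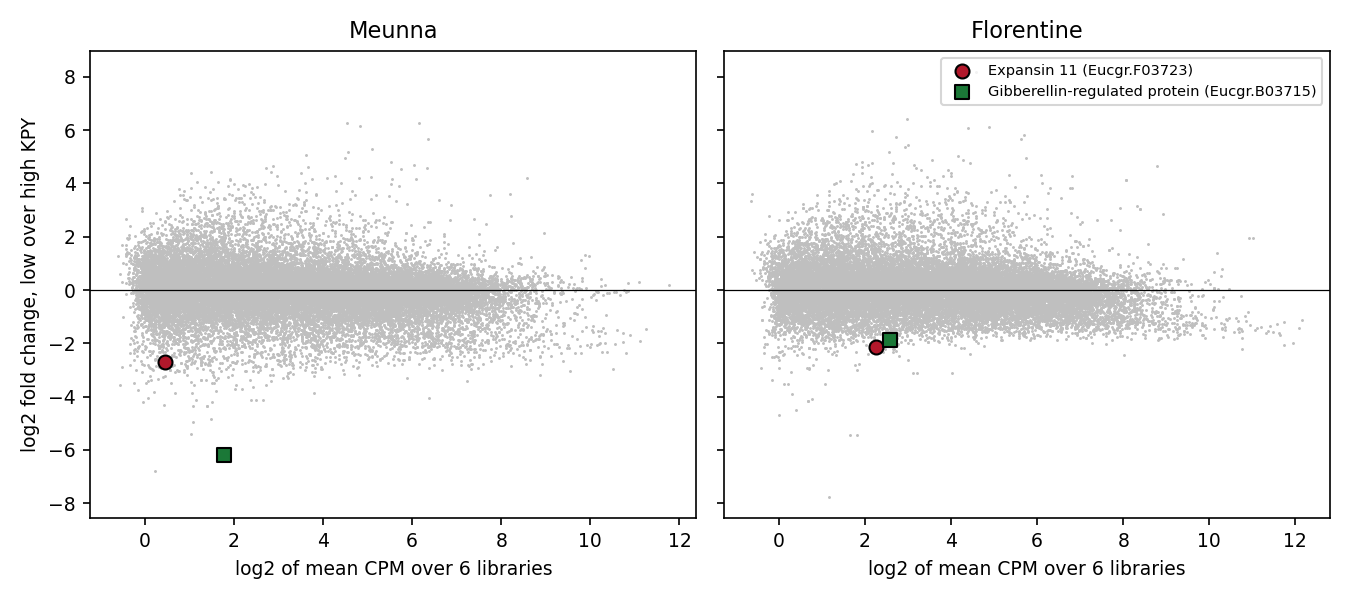
Log2 fold change of low over high KPY (vertical axis) against the log2 of the mean CPM over 6 libraries (horizontal axis) for every transcript of Meunna (left, 26279) and Florentine (right, 23917), in grey. The red circle is expansin 11 and the green square the gibberellin-regulated protein, which lies at -6.20 in Meunna and at -1.88 in Florentine.

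Counting error alone was small beside these ratios. Over the 3 bulks of a class, expansin 11 had 507 reads in Meunna high KPY against 72 in the low class, which gives a ratio of 6.55 per unit of scaled depth with an exact 95% Poisson interval of 5.11 to 8.50. In Florentine it had 958 and 285 reads, a ratio of 4.54 (3.97 to 5.20). The gibberellin-regulated protein had 1506 and 19 reads in Meunna, a ratio of 73.7 (47.0 to 123), and 1166 and 399 reads in Florentine, a ratio of 3.94 (3.52 to 4.43). These intervals cover counting error only, and the bulks of a class differed from each other by far more in several cases, as for expansin 11 in Meunna high KPY.

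Single bulks moved some of these estimates. Without Florentine low KPY bulk 1, the log2 fold change of the gibberellin-regulated protein in Florentine was -2.93 instead of -1.88, and that of expansin 11 was -2.71 instead of -2.12. Meunna expansin 11 was -2.05 without high KPY bulk 3 and -3.06 without high KPY bulk 1. The Meunna value of the gibberellin-regulated protein stayed between -6.58 and -5.85 whichever bulk was left out.

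Within a class, the genes were compared by how far each bulk departed from its group mean on the log2 CPM scale, with a prior count of 2. In Florentine both genes were above their group mean in low KPY bulk 1 and below it in bulk 2. Bulk 1 was at 0.93 for expansin 11 and at 1.37 for the gibberellin-regulated protein, while bulk 2 was at -0.91 and -0.72. Bulk 3 was at -0.01 for expansin 11 but at -0.65 for the gibberellin-regulated protein.

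Many other transcripts departed the same way in bulks 1 and 2, but not in bulk 3. Of the 4789 transcripts called lower in Florentine low KPY, 90.5% lay above their group mean in bulk 1 and 5.07% in bulk 2, with median departures of 0.23 and -0.29. The departures of both genes in bulk 1 were larger than most: 37 of those transcripts exceeded expansin 11 and 2 exceeded the gibberellin-regulated protein. In bulk 3, 76.4% of those transcripts lay above their group mean, with a median departure of 0.07. There 4775 of them exceeded the gibberellin-regulated protein and 3850 exceeded expansin 11. Those transcripts were of any abundance, and both genes were weakly expressed. Against the 1000 Florentine transcripts nearest in mean CPM, the SD of log2 CPM within classes exceeded 88.3% for expansin 11. It exceeded 93.3% for the gibberellin-regulated protein. The summed xylem markers were likewise highest in low KPY bulk 1, at 6541 CPM, against 2467 CPM in bulk 2 and 5135 CPM in bulk 3. The part of the markers in these values was not tested. In bulk samples fewer cells of a type and less RNA per cell cannot be told apart.

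In Meunna the departures of the genes did not run together. Expansin 11 was at 1.00 in high KPY bulk 3 and at -0.88 in high KPY bulk 1, whereas the gibberellin-regulated protein was at -0.03 and -0.31 there. Of the 4444 transcripts called lower in Meunna low KPY, 84.2% lay above their group mean in high KPY bulk 3 and 21.8% in bulk 1. Their median departures were 0.18 and -0.12, and 12 of them exceeded expansin 11 in bulk 3. In low KPY bulk 3 expansin 11 was at 0.53 and the gibberellin-regulated protein, on 2 reads, at -0.76. Over the 6 libraries of a trial the log2 CPM of the genes had a Pearson r of 0.87 in Meunna and 0.97 in Florentine, computed across both KPY classes.

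**Figure D3:**
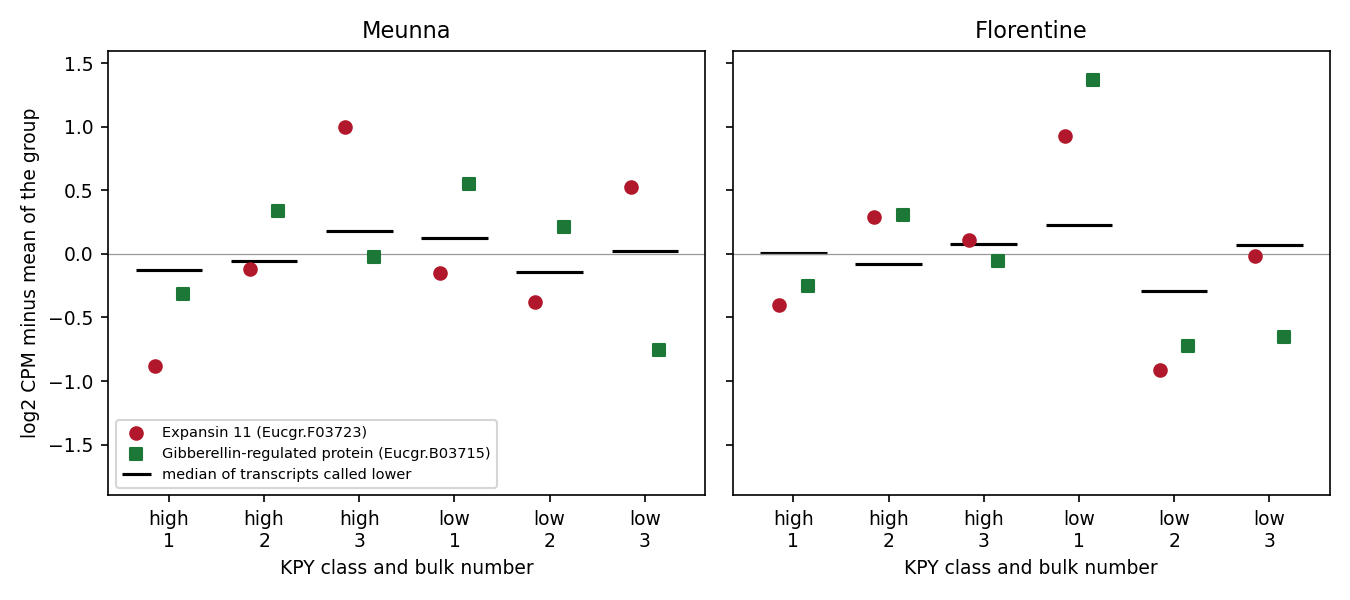
Departure of each bulk from the mean of its group in log2 CPM (vertical axis) for expansin 11 (red circles) and the gibberellin-regulated protein (green squares), by KPY class and bulk number in Meunna (left) and Florentine (right). Black lines are the median departure of all transcripts called lower in low KPY in that trial; Florentine low KPY bulk 1 is high for both genes, at 0.93 and 1.37.

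The question left by the separate fits, how the level of each gene differed between the trials, was answered in 1 joint fit of all 12 libraries. It covered the 12224 genes with 1 transcript in each table, and its CPM are relative to the reads of those genes alone, hence higher than the values above. Florentine and Meunna were sampled at different sites, in different months of different years, with more trees per bulk in Florentine. Their transcripts were predicted and counted separately, so trial cannot be told apart from any of these. For the described pair of genes, p-values are given for high KPY only. P-values of this fit set a difference against the spread between bulks and are adjusted by Benjamini-Hochberg over all 12224 genes.

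Expansin 11 was higher in Florentine than in Meunna in both KPY classes. In high KPY it had 1.58, 2.56 and 5.50 CPM in Meunna and 9.00, 14.2 and 12.8 CPM in Florentine. In low KPY it had 0.468, 0.391 and 0.760 CPM in Meunna and 4.79, 1.34 and 2.48 CPM in Florentine. The trials did not overlap in either class. The share of all genes with no overlap between the trials was not counted. Nothing is therefore read from such separation, here or for the gibberellin-regulated protein below.

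In high KPY the difference in expansin 11 was 1.90 on the log2 scale (SE 0.52), or 3.73-fold, and passed the edgeR quasi-likelihood test (adjusted p = 0.0225), in a comparison that called 27.5% of all genes. In low KPY it was 2.41 (SE 0.57), or 5.33-fold, given with no test because the low values entered the choice of the gene, in a comparison that called 26.8% of all genes. The high KPY result did not pass when any 1 of 4 bulks was left out, namely Meunna high KPY bulk 1 (1.57, adjusted p = 0.0784) or bulk 2 (1.76, adjusted p = 0.0828), or Florentine high KPY bulk 2 (1.75, adjusted p = 0.0569) or bulk 3 (1.88, adjusted p = 0.0581), all from edgeR.

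In low KPY the gibberellin-regulated protein lay far apart in the trials, a value that is tied to the choice of the gene by its deep Meunna fall. It had 0.195, 0.144 and 0.0524 CPM in Meunna and 8.36, 1.99 and 2.02 CPM in Florentine, with no overlap. The difference was 4.90 on the log2 scale (SE 0.66), or 29.8-fold, given with no test. Without Florentine low KPY bulk 1 it was 3.86.

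In high KPY the same gene had 7.61, 11.4 and 8.62 CPM in Meunna and 12.2, 17.5 and 14.0 CPM in Florentine. All Florentine bulks lay above all Meunna bulks, but the difference of 0.66 on the log2 scale (SE 0.50) did not pass the edgeR test (adjusted p = 0.350). Its 95% interval, from -0.32 to 1.65, runs from a level 0.798 times to one 3.15 times that of Meunna, so a difference of that size was not detectable with these bulks.

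**Figure D4:**
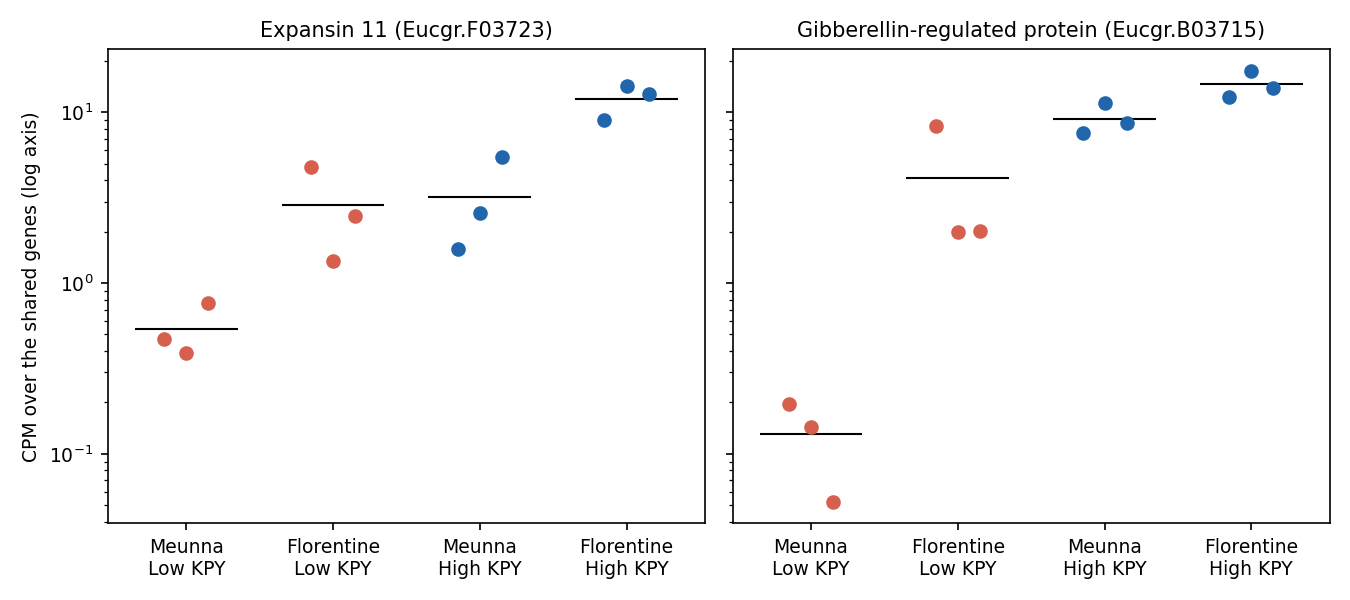
Level of expansin 11 (left) and the gibberellin-regulated protein (right) in the 4 groups, ordered by mean, in CPM over the 12224 genes of the joint fit on a log axis. Points are bulks, blue for high and red for low KPY, and black lines are group means, which rise from 0.540 to 12.0 CPM for expansin 11 and from 0.130 to 14.6 CPM for the gibberellin-regulated protein.

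Both genes had the same order of group means on this joint scale. Meunna low KPY was lowest, followed by Florentine low KPY, Meunna high KPY and Florentine high KPY. Low below high KPY within each trial was set by the choice of the genes, so nothing is read from the shared order. For expansin 11 the means were 0.540 ± 0.195, 2.87 ± 1.76, 3.21 ± 2.04 and 12.0 ± 2.68 CPM (SD, n = 3 each). For the gibberellin-regulated protein they were 0.130 ± 0.0722, 4.12 ± 3.67, 9.20 ± 1.94 and 14.6 ± 2.70 CPM (SD, n = 3 each). The middle groups, Florentine low KPY and Meunna high KPY, overlapped for both genes, and the neighbours on either side of them did not.

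The change with KPY class was then set side by side between the trials, as a description of the values that chose the genes. For the gibberellin-regulated protein the log2 fold change was less negative in Florentine by 4.23 (SE 0.82), which makes the Meunna ratio 18.8 times the Florentine one. Without Florentine low KPY bulk 1 this difference was 3.20. For expansin 11 the difference was 0.52 (SE 0.74). It was -0.088 without Meunna high KPY bulk 3 and -0.065 without Florentine low KPY bulk 1, so these bulks set its sign.

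Other genes of the families were taken from the study's own tables of called transcripts, which give 5 further expansins and 6 further gibberellin-regulated genes. That list was chosen on these libraries and is not a full family. A gene was counted in a trial only where no table of transcripts called in that trial supplied it, which left 4 genes in each trial. The rule removes genes seen among the study's calls in that trial, so low counts and medians near 0 are favoured beforehand. Shares and medians over all transcripts are given for scale only, and nothing is read from the comparison. By the edgeR quasi-likelihood test at a false discovery rate of 0.05, 1 of the 4 was higher in Meunna low KPY and 0 were lower, with 1 lower at an unadjusted p below 0.05 and 1 called lower by DESeq2. Of all Meunna transcripts 28.0% were called, 16.9% lower and 11.1% higher. In Florentine 2 of the 4 were lower, where 39.5% of all transcripts were called, 20.0% lower and 19.5% higher. The median log2 fold change of the counted genes was -0.02 in Meunna and -0.09 in Florentine, against 0.00 and 0.02 over all transcripts.

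Both counts depended on single bulks. The Meunna count of lower genes was 1 without low KPY bulk 1 or bulk 2. The Florentine count was 0 without high KPY bulk 1, 2 or 3 or low KPY bulk 3, though 2 of the 4 genes kept an unadjusted p below 0.05 in each of these fits and DESeq2 called 2 on all bulks. Calls also fell over all 23917 Florentine transcripts, from 9450 with all bulks. They numbered 0 without high KPY bulk 1 or bulk 3, 7677 without high KPY bulk 2 and 2725 without low KPY bulk 3. The wider set that also counts genes held in the tables of both trials had 3 of 7 genes lower and 1 higher in Meunna and 5 of 8 lower in Florentine, but those genes had been called in the same trial and libraries.

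Among the expansins, the most abundant was the expansin A6 gene Eucgr.B02355. The study's tables for both trials supplied it, so its values are a description. It had 333, 439 and 656 CPM in Meunna high KPY and 172, 79.3 and 88.1 CPM in Meunna low KPY, a log2 fold change of -2.07 (SE 0.38). In Florentine it had 501, 549.5 and 566 CPM in high KPY and 259, 83.1 and 216 CPM in low KPY, a log2 fold change of -1.53 (SE 0.39). The classes did not overlap in either trial, as for expansin 11, and Florentine low KPY bulk 1 was again the highest of its class.

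Expansin A4 (Eucgr.B02358) and a further expansin A6 gene, Eucgr.J02048, were supplied in the same way. Expansin A4 was at -2.44 in Meunna (SE 0.45) and at -1.39 in Florentine (SE 0.31) on the log2 scale, and Eucgr.J02048 at -1.48 (SE 0.29) and -1.27 (SE 0.55). Expansin A10 (Eucgr.B03214), which could be counted in Meunna, was at -0.93 (SE 0.43) there and did not pass (edgeR adjusted p = 0.155).

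Expansin A13 (Eucgr.C02271) went the other way from expansin 11. It had 8.59, 8.21 and 2.61 CPM in Meunna high KPY and 217, 104 and 142 CPM in Meunna low KPY, a rise of 4.57 on the log2 scale (SE 0.53, edgeR adjusted p = 0.0032). It was counted in Meunna because the incomplete lists of the study's Meunna calls used here did not hold it. The study may still have called it there. In Florentine, where it came from the study's own list and was not counted, it had 3.43, 6.14 and 0.297 CPM in high KPY and 17.01, 162 and 130 CPM in low KPY, a log2 fold change of 4.97 (SE 1.18). Florentine low KPY bulk 1, which was the highest low bulk for expansin 11, was the lowest low bulk for expansin A13.

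Of the 4 gibberellin-regulated genes counted in Florentine, 2 were lower in low KPY. Eucgr.I01835 fell by 0.96 (SE 0.28, edgeR adjusted p = 0.0379) and Eucgr.F00593 by 0.62 (SE 0.16, edgeR adjusted p = 0.0261). Eucgr.F00131 was at 0.55 (SE 0.55) and GAST1 homolog 1 (Eucgr.F00595), named after a gibberellin-stimulated transcript of tomato, at 0.44 (SE 0.38), and neither passed (edgeR adjusted p = 0.455 and 0.385). GAST1 homolog 5 (Eucgr.F02851), the most abundant of the list and not counted, had 64.3, 61.7 and 79.0 CPM in Florentine high KPY and 34.8, 19.1 and 28.4 CPM in low KPY, a log2 fold change of -1.32 (SE 0.23).

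In Meunna only 2 gibberellin-regulated genes could be counted. Eucgr.I01835 was at -1.16 (SE 0.47, edgeR adjusted p = 0.110) and Eucgr.B03366 at 0.88 (SE 0.47, edgeR adjusted p = 0.204), and neither passed. The log2 fold changes of the other genes in Meunna, where the study's own table supplied them, are values only and lay between -1.37 for Eucgr.F00131 and -2.47 for Eucgr.F00593, against -6.20 for the gibberellin-regulated protein Eucgr.B03715. Eucgr.B03366, likewise not counted in Florentine, had 2.24 ± 0.357 CPM in high KPY and 4.79 ± 1.40 CPM in low KPY there (SD, n = 3 each).

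The gap between the trials was also looked up in the other genes, as a description. The Florentine minus Meunna difference of the log2 fold change lay between 0.12 and 2.24 over the 6 other gibberellin-regulated genes. It was 0.12 for Eucgr.I01835, 0.15 for Eucgr.B03366, 0.60 for Eucgr.F02851, 1.79 for Eucgr.F00593, 1.85 for Eucgr.F00131 and 2.24 for Eucgr.F00595, against 4.23 for Eucgr.B03715. None of the 6 passed the edgeR test of this difference (lowest adjusted p = 0.314, for Eucgr.F00593 with SE 0.35). The 4.23 of Eucgr.B03715 (SE 0.82) is given with no test, so it is not shown to stand apart from theirs. Eucgr.F00593, Eucgr.F00131 and Eucgr.F00595 were supplied by the study's Meunna calls and not by its Florentine calls, which favours a positive difference. Over the 5 other expansins the difference lay between -0.11 and 0.97, around the 0.52 of expansin 11, and none passed (lowest edgeR adjusted p = 0.799).

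**Figure D5:**
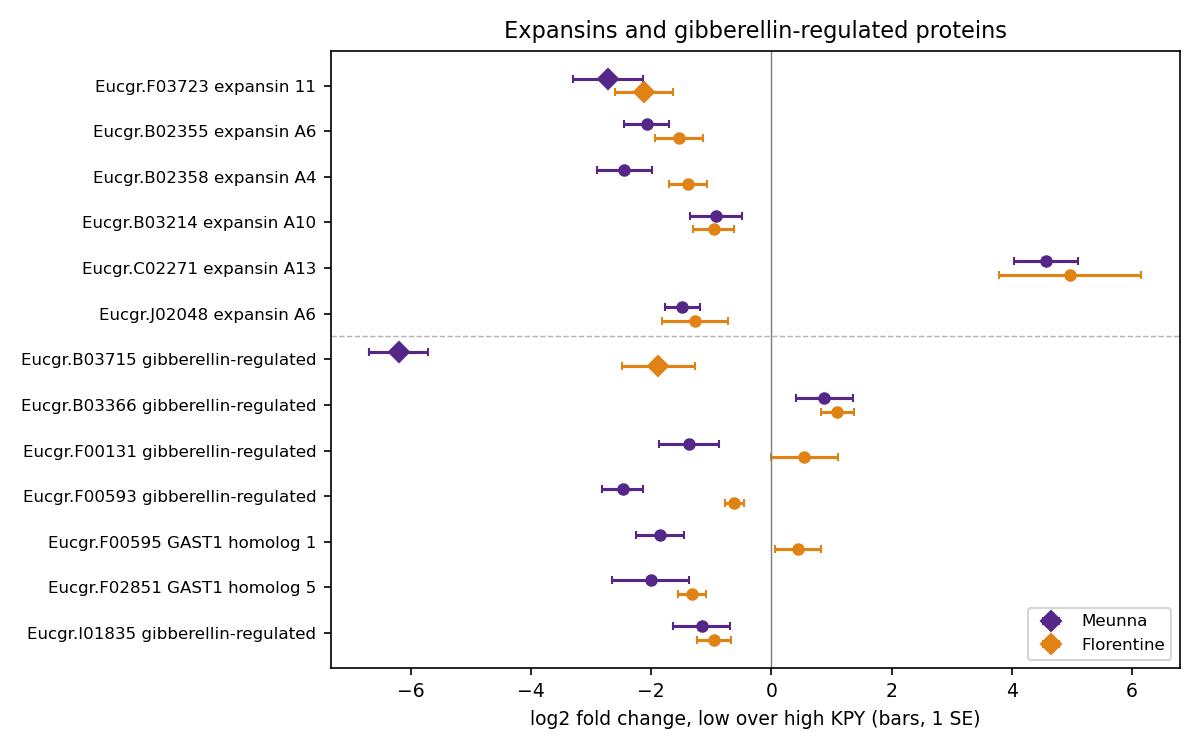
Log2 fold change of low over high KPY with 1 SE for expansin 11 and 5 other expansins (above the dashed line) and for the gibberellin-regulated protein and 6 other gibberellin-regulated genes (below it), in Meunna (purple) and Florentine (orange). Diamonds mark the described pair of genes; expansin A13 lies at 4.57 and 4.97, on the opposite side of 0 from expansin 11.

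Xyloglucan endotransglucosylase/hydrolases (XTH), which cut and rejoin the xyloglucan that tethers cellulose and so act on the same wall as expansins, were listed in the same way. Only 2 of 9 could be counted in Meunna and 1 in Florentine, and none of these passed the edgeR test at a false discovery rate of 0.05. They were XTH15 (Eucgr.A01968) at -0.86 (SE 0.58) and Eucgr.C00175 at 0.16 (SE 0.34) in Meunna, and XTH8 (Eucgr.D01294) at -0.52 (SE 0.55) in Florentine. The rule had removed genes seen among the study's calls, so nothing is read from the lack of calls. Among those not counted, XTH5 (Eucgr.J01663) was the lowest in Meunna at -2.24 (SE 0.47) and Eucgr.C00184 in Florentine at -1.88 (SE 0.41), and Eucgr.C00175 was the highest in Florentine at 1.59 (SE 0.47). Expansin 11 was at -2.71 and -2.12 in these trials.

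The genes whose pattern over the libraries was most like each of the pair were found by the lower of the Pearson r values over the 6 libraries of each trial, among 16183 genes. For expansin 11 they were Eucgr.E00084 (r = 0.99), Eucgr.G01788 (0.99) and Eucgr.F03537 (0.99), the last a TCP-1/cpn60 chaperonin, a class of proteins that fold others. Their changes were smaller than those of expansin 11, with log2 values between -0.46 and -1.03 in Meunna and between -0.39 and -0.94 in Florentine. For the gibberellin-regulated protein they were Eucgr.J00459 (0.99), Eucgr.K01917 (0.98), annotated with an MD-2-related lipid recognition domain, and Eucgr.I00985 (0.98). Those genes had log2 values between -0.65 and -0.94 in Meunna and between -0.30 and -0.55 in Florentine. By the same measure the gibberellin-regulated protein ranked 2752 among the genes most like expansin 11, and expansin 11 ranked 1908 in the reverse search. These values share the libraries, their depth and the KPY classes, and are given as a description.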

How the data were processed

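Cambial RNA of 12 bulks was sequenced with Illumina TruSeq libraries. The deposited values are whole read counts per predicted transcript, 1 table per trial. Per the study's methods, the authors removed adapters and low-quality reads, used TopHat with Bowtie to map each trial's pooled reads to E. grandis (genome version not given in the sources used here), predicted transcripts with Cufflinks without an annotation, counted reads with BEDtools and kept transcripts with 1 CPM in at least 3 libraries. Reads of E. nitens were thus mapped to another species, and near-identical family members could share reads. Strand-specific counting is not stated.

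The fits used edgeR 4.0.16 under R 4.3.3 (TMM, quasi-likelihood F test, Benjamini-Hochberg). Each trial was fitted on its own with KPY class, and 12 libraries were fitted together by group over the 12224 genes with 1 transcript in each trial. Where a gene had several transcripts, the one with the highest mean CPM was used. SE is the log2 fold change divided by the root of F, and 95% intervals of log2 values are 1.96 SE to either side. Log2 CPM used a prior count of 2. Scripts were tested on simulated counts.

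The genes and lists were chosen with earlier results of these data known. The other expansins, gibberellin-regulated and XTH genes were found by annotation in the parts of the study's tables of called transcripts that were used here. Those parts were incomplete, so a gene that the study called in a trial may be missing from them and be counted there. A gene is counted in a trial only if no table of transcripts called in that trial, or in both trials, supplied it. Counting it through the table of the other trial is an alternative chosen after seeing the data. The gibberellin metabolism list found 0 genes. Text names, from the expansin and gibberellin-regulated lists, the 3 largest rises and falls that passed per trial, the most abundant gene and genes called in opposite directions, from XTH the largest rise and fall, and the 3 genes most alike in pattern to each of the pair. Other list genes are named for completeness, after their values were seen.

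Alternatives were RLE size factors, library size only, DESeq2 1.42.0, the edgeR exact test, filterByExpr, a replicate block, summed transcripts, a false discovery rate of 0.01, a prior count of 0.5 and leaving out each library.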

Additional observations from a re-analysis of the deposited data

How the results depend on the processing

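The low against high KPY log2 fold changes of both genes kept their sign under every alternative run in both trials. Scaling by library size only raised the median of all transcripts to 0.30 in Meunna and 0.33 in Florentine, against 0.00 and 0.02. Under it the values were -2.39 and -1.83 for expansin 11 and -5.91 and -1.59 for the gibberellin-regulated protein, and 0 instead of 2 Florentine list genes were called lower (1 at an unadjusted p below 0.05). With 1 library left out, expansin 11 lay between -3.06 and -2.05 in Meunna and between -2.71 and -1.76 in Florentine, and the gibberellin-regulated protein between -6.58 and -5.85 and between -2.93 and -1.53. Its difference between trials ran from 3.20 to 4.62, and that of expansin 11 from -0.088 to 0.86, negative also at -0.065. The Florentine over Meunna difference of expansin 11 in high KPY ran from 1.57 to 2.52 and did not pass in 4 of 12 leave-one-out fits. All 4 left out a high KPY bulk. Leaving out a low KPY bulk kept the estimate at 1.90, so those fits say little about its stability. In low KPY, not tested, the difference ran from 1.83 to 2.76. That of the gibberellin-regulated protein ran from 0.50 to 0.85 in high KPY, never passing, and from 3.86 to 5.29 in low KPY, not tested. The fits without Florentine high KPY bulk 1 or bulk 3 called 0 of all 23917 transcripts. List genes called lower ran from 0 to 2 in Florentine and from 0 to 1 in Meunna over the leave-one-out fits, against 2 and 0 with all bulks, and DESeq2 called 1 in Meunna. At a false discovery rate of 0.01 edgeR called 0 in Florentine, where 2 had an unadjusted p below 0.05 and DESeq2 called 2 at 0.05. Counting also genes that the tables of both trials hold, a choice made after seeing the data, gave 3 in Meunna and 5 in Florentine. The cause of these changes was not tested.

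The labels number the bulks 1 to 3 in each class, but nothing ties equal numbers together. Departures of same-numbered bulks correlated at -0.08, 0.04 and 0.12 in Meunna and at -0.08, 0.26 and -0.01 in Florentine, so the samples were treated as unpaired. With the replicate block the log2 fold changes were -2.56 and -2.27 for expansin 11 and -6.25 and -2.23 for the gibberellin-regulated protein, the Florentine over Meunna calls in high KPY did not change, and 1 instead of 2 list genes was called lower in Florentine. The replicate block called 6167 Meunna transcripts in place of 7354 and 9154 Florentine transcripts in place of 9450.

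Depth limits the gibberellin-regulated protein in Meunna low KPY, where 19 reads stand behind the class, and a bulk with 2 reads has an exact 95% Poisson interval of 0.00433 to 0.129 CPM. filterByExpr removed no transcript, so that alternative gave the same values.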
